A study of Mus musculus with 7 samples.

Results

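The epidermal growth factor (EGF) and hepatocyte growth factor (HGF) families were described in liver RNA taken 8 h after carbon tetrachloride (CCl4), a solvent that hepatocytes convert into reactive radicals. The 10 genes were chosen by name and not by their values: 6 EGF-family ligands (*Egf*, *Tgfa*, *Areg*, *Hbegf*, *Btc* and *Ereg*), the receptor genes *Egfr* and *Erbb3*, and *Hgf* with its receptor gene *Met*. All 10 were among the 14851 Ensembl genes of the deposited table, and 9 had a mean of at least 10 normalised counts over the livers and were tested together with 12545 genes in all; *Ereg* was too low. The 4 livers called FL are of genotype *Albumin-Cre; p53* FL/FL, with both *Trp53* alleles floxed, and the 3 called WT are *Albumin-Cre; p53* WT/WT, with the same Cre and no floxed allele. Values are listed in replicate order, 1 to 4 for FL and 1 to 3 for WT. All were C57BL/6J males of about 70 days injected once, intraperitoneally, with 1 mL/kg of CCl4 diluted to 20% in corn oil. The *Albumin* promoter drives Cre in hepatocytes and their forebears, and *Trp53* was not measured here by cell type. Some mice of the study also carried a red fluorescent reporter allele, without a statement of which. The source names of the WT and FL livers differ in the labels, and source and genotype cannot be told apart.

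EGF-family ligands are made as membrane-bound precursors and act after proteases release them, mostly on the tyrosine kinase receptor EGFR. ERBB3 has little kinase activity of its own and signals in pairs with other ERBB receptors. HGF is secreted by non-parenchymal cells, in the liver largely by stellate cells, is cleaved into its active form, and binds MET on hepatocytes. Both routes run through RAS and the ERK kinases and are known as mitogens of the regenerating liver.

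Depth and composition bear on every value below. The deposited values are read counts divided by size factors and rounded to whole numbers, called normalised counts here. Their low values are spaced so that 1 read was worth 0.812 to 1.38 normalised counts, from which 11.9 to 19.5 M reads per FL liver and 15.4 to 17.1 M per WT liver were estimated. A level under 3 reads, which is 2.43 to 4.15 normalised counts depending on the liver, was treated as not detected; this floor covers counting error only. *Trp53* was at 131, 130, 217 and 110 normalised counts in FL livers and at 876, 688 and 831 in WT livers (log2 fold change -2.47, limma adjusted p = 0.0447), lower in every FL liver. Its adjusted p was over 0.05 in 10 of 17 alternatives, 6 of the 7 that left out 1 liver among them, while the log2 change stayed between -2.78 and -2.35. All 6 hepatocyte markers examined, albumin among them, were present in every liver, with sums of 1309068 to 1727841 in FL and 1122148 to 1375465 in WT livers, and 1 of them (*Ttr*, transthyretin) was wholly higher in FL livers with an unadjusted p-value under 0.05. WT replicate 2 and, less far, FL replicate 3 stood apart from the other livers: the summed level of 6 proliferation genes was 1028 in WT replicate 2 against 94 and 121 in the other WT livers, and 268 in FL replicate 3 against 77 to 110 in the other FL livers. In WT replicate 2 the sum of 7 stellate cell markers was 7151 (3317 to 4135 in the other livers) and that of 7 Kupffer cell or macrophage markers 8385 (3590 to 5546). The summed cholangiocyte markers ran from 603 to 1482 in FL and from 879 to 1204 in WT livers, with FL replicate 3 the lowest, and 3 of 5 had an unadjusted p-value under 0.05, *Sox9* higher and *Krt19* and *Krt7* lower in every FL liver. Endothelial (2608 to 3035 and 2383 to 3334) and neutrophil (19 to 60 and 40 to 67) sums overlapped between genotypes, with 1 neutrophil marker wholly lower in FL livers. None of these markers was at 0 in any liver except 1 of the 4 neutrophil markers in the table. The part of these cells in the results below was not tested. In bulk RNA, fewer cells of a type and less RNA per cell cannot be told apart. Where leaving out both of these livers moved a member's result, the value without them is given beside it, as it is for *Errfi1* and *Ccnd1*. For the other pathway genes it is not given. The pair was picked because it stood apart in these same data. Without FL replicate 3 and WT replicate 2, 1215 of the 12545 genes had an unadjusted limma p-value under 0.05, against 401 with all livers.

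The promoters of *Areg*, *Errfi1* and *Egfr* are printed because *Areg* was the member, and *Errfi1* the gene among the other pathway genes, with the smallest p-value between FL and WT livers, and *Egfr* is the receptor that both act on. The sequences are those of RefSeq on GRCm38.p6, read 5′ to 3′ on the gene's own strand and ending at the base before the RefSeq start. RefSeq entries matched 7 of the 10 members; *Ereg*, *Hbegf* and *Erbb3* had none. Capitals mark the cAMP response element TGACGTCA, the TATA box TATAAA and the GC box GGGCGG in the first pair, and the GC box and the ETS motif CCGGAAG in *Egfr*, on either strand. The *Errfi1* stretch is that of the downstream one of 2 RefSeq starts and lies in an intron of a transcript that GENCODE starts further upstream, over an exon of the antisense *1700045H11Rik*. Neighbouring GC boxes of *Errfi1* overlap in a shared run of capitals.
*Areg*, chr5:91139349-91139598, plus strand: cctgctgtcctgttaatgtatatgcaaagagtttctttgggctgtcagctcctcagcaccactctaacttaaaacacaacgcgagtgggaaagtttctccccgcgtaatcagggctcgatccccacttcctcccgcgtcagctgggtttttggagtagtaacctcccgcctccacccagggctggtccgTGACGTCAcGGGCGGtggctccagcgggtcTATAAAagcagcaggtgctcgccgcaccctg
*Errfi1*, chr4:150854820-150855069, plus strand: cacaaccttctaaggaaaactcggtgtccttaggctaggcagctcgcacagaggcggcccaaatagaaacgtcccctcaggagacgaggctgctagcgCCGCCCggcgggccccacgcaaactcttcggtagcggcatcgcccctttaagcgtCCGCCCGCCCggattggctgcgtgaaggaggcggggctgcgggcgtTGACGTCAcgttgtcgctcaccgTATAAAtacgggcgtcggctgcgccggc
*Egfr*, chr11:16751953-16752202, plus strand: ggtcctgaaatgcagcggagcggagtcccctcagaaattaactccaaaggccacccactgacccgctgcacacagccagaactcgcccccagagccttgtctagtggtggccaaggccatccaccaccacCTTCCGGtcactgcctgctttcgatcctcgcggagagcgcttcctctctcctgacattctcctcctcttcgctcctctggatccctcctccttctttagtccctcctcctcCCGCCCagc

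The stretches before *Areg* and *Errfi1* both held a cAMP response element followed by a TATA box. The cAMP response element spans the bases 61 to 54 before the start of *Areg* and 51 to 44 before that of *Errfi1*, with the TATA box at 31 to 26 and at 28 to 23. Of the 32851 promoters in the RefSeq table, 1.55% hold this element within the same 250 bases, 12.4% hold the TATA box and 0.119% hold both. *Egfr* had neither of them, and a GC box (32.7% of promoters) and an ETS motif (6.91%). The likeness was noticed after the values had been seen, and a match of letters is a description and not a binding site. In all, 12 motifs were searched on both strands. The GC box was also found in *Areg*, *Errfi1*, *Met* and *Tgfa*, and the ETS motif also in *Egf*. Of the rest, the AP-1 motif TGANTCA (6.75% of promoters) was found in *Met*, the p53 half-site (7.13%) and the C/EBP motif TTGCNNAA (9.56%) in *Egf*, the TEAD motif GGAATG (12.6%) at the upstream *Errfi1* start, the antioxidant response element TGACNNNGC or TGAGNNNGC (23.0%) in *Egf* and *Met*, and the cAMP half-element TGACG (17.8%), which lies within the full one, in *Areg*, *Btc* and *Errfi1*. The CArG box (1.47%) and the HNF4 motif CAAAGTCCA (0.384%) were in none of these promoters.

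Compared per kilobase of annotated exon, *Egfr* and *Met* were each more abundant than the ligands they bind. *Egfr* had a mean of 1072 normalised counts per kilobase over the 7 livers and was above every other member in every liver. *Erbb3* (258.7 per kilobase), *Tgfa* (195.9), *Met* (158.7), *Btc* (121.6) and *Areg* (46.1) followed. *Hbegf* (9.16) and *Hgf* (9.03) came next, with *Hbegf* the higher in 3 of the 7 livers, so their order lies within the spread between livers. *Ereg* (1.21) and *Egf* (1.04) were lowest, with *Ereg* the higher in 4 of 7. *Erbb3* was above *Tgfa* in 5 livers, *Tgfa* above *Met* in 5, *Met* above *Btc* in 6, *Btc* above *Areg* in 6, and *Areg* above *Hbegf* in 7. *Met* was above *Hgf* in every liver (at least 112.3 against at most 14.8 per kilobase), and *Egfr* was 2.38 to 4.80 times the sum of its 6 ligands. Exon lengths are the union of all annotated transcripts, so these per-kilobase levels are approximate where livers use short isoforms.

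None of the 9 tested members passed the threshold between FL and WT livers. With limma across the 12545 genes, 0 members had an adjusted p-value under 0.05 (0.0159% of all genes did) and 1, *Areg*, had an unadjusted p-value under 0.05 (3.2% of all genes). The fitted log2 fold changes were above 0 for 3 members and below 0 for 6, with a median of -0.09 against 0.01 over all genes tested. *Areg* was also the 1 member of 9 whose FL and WT livers did not overlap; 2.77% of all genes lay wholly higher and 1.98% wholly lower in FL livers.

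**Figure D1:**
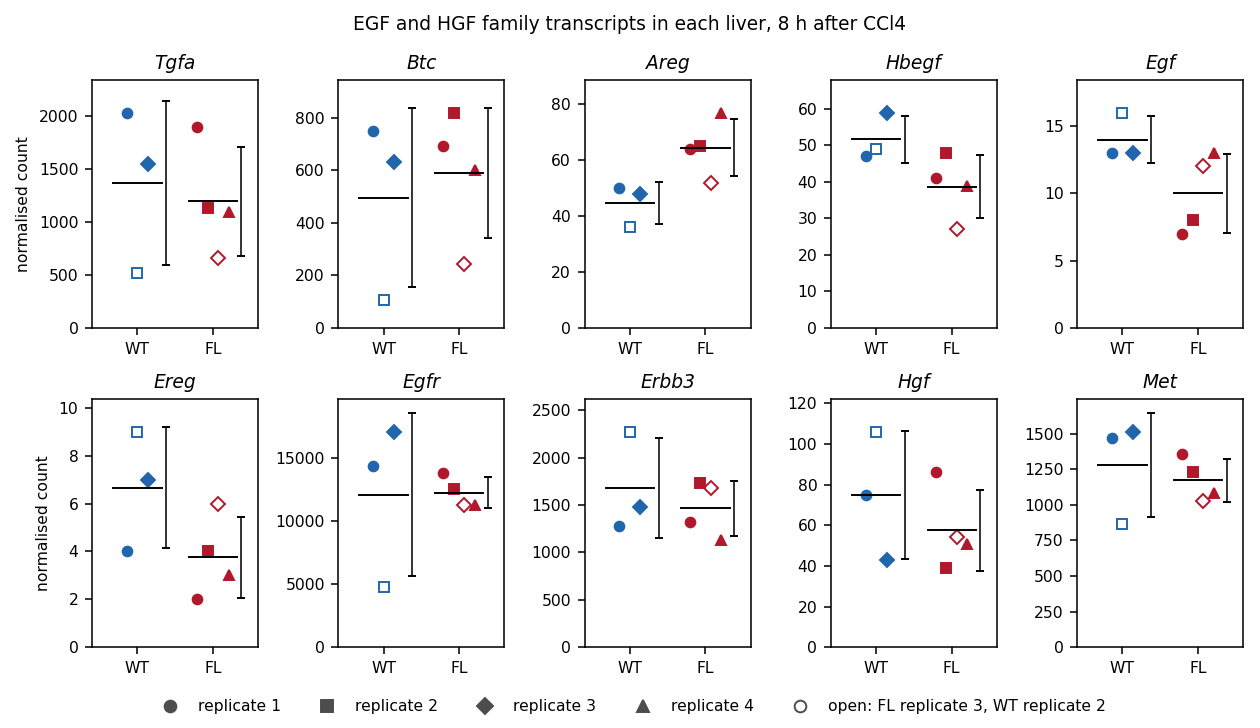
Normalised counts (vertical axes, linear from 0) of the 10 EGF and HGF family genes in 3 WT (blue) and 4 FL (red) livers; symbols give the replicate number, open symbols are WT replicate 2 and FL replicate 3, horizontal lines are means and bars 1 SD. Only for *Areg* does every FL liver (52 to 77) lie above every WT liver (36 to 50), and WT replicate 2 is the lowest liver for *Tgfa*, *Btc*, *Areg*, *Egfr* and *Met*.

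Among the ligands, *Areg* encodes amphiregulin, a weak EGFR agonist that acts on its own cell and on neighbours (ENSMUSG00000029378, chromosome 5 of GRCm38 from 91139599 to 91148432, plus strand). It was at 64, 65, 52 and 77 normalised counts in FL livers and at 50, 36 and 48 in WT livers. The lowest FL liver, replicate 3 at 52, was just above the highest WT liver at 50, so the groups were separate by a narrow margin. The means were 64.5 ± 10.2 (SD, n = 4) and 44.7 ± 7.57 (SD, n = 3), a fitted fold of 1.44 with a 95% interval of 1.03 to 2.01 (log2 fold change 0.52, standard error 0.21, limma unadjusted p = 0.0382 and adjusted p = 0.999). Over the 35 ways of dividing the livers, the exact permutation test (two-sided) gave p = 0.057, where the smallest possible is 0.029. Without FL replicate 3 and WT replicate 2 the log2 change was 0.47 (unadjusted p = 0.0316, adjusted p = 0.461). Over all 17 alternatives its unadjusted limma p ran from 0.0223 to 0.178 and was over 0.05 in 8 of them, among them those without FL replicate 1, 2 or 4 or without WT replicate 2 or 3. *Areg* was lowest of its own group in both of these livers.

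*Tgfa*, transforming growth factor alpha, a ligand that hepatocytes can make, was the most abundant EGFR ligand in 6 of the 7 livers (ENSMUSG00000029999, chromosome 6, 86195223 to 86275719, plus strand). Its values were 1902, 1134, 663 and 1094 in FL livers and at 2036, 521 and 1550 in WT livers. The groups overlapped, and the lowest liver of each was the one that stood apart. The log2 change was -0.08 (standard error 0.50, adjusted p = 0.999), with a fold interval of 0.424 to 2.12, which leaves changes of 2-fold in either direction within the error. Without FL replicate 3 and WT replicate 2 it was -0.42 (interval -0.91 to 0.08, unadjusted p = 0.0904).

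*Btc*, betacellulin, a ligand of EGFR and ERBB4 (ENSMUSG00000082361, chromosome 5, 91357261 to 91402994, minus strand), varied most of all the members. It was at 693, 820, 245 and 602 normalised counts in FL livers and at 749, 108 and 630 in WT livers, a 6.94-fold range among WT livers and a 3.35-fold range among FL livers. FL replicate 3 and WT replicate 2 were at least 2-fold below each other liver of their group. The fitted log2 change of 0.53 had a standard error of 0.70 (adjusted p = 0.999) and was 0.03 (interval -0.28 to 0.34) without these livers.

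The remaining EGF-family ligands were scarce. *Hbegf*, heparin-binding EGF-like growth factor (ENSMUSG00000024486, chromosome 18), was at 41, 48, 27 and 39 normalised counts in FL livers and at 47, 49 and 59 in WT livers. FL replicates 1, 3 and 4 were below every WT liver and FL replicate 2 lay between the lowest pair of WT livers. The log2 change was -0.43 (standard error 0.24, limma unadjusted p = 0.113, adjusted p = 0.999). Without FL replicate 3 and WT replicate 2 it was -0.30 (interval -0.79 to 0.18, limma unadjusted p = 0.194). *Egf* itself (ENSMUSG00000028017, chromosome 3, 129677565 to 129755316, minus strand), which is made mainly outside the liver, was at 7, 8, 12 and 13 in FL and at 13, 16 and 13 in WT livers. This is an estimated 5.78 to 17.5 reads per liver, with a log2 change of -0.48 (standard error 0.36, adjusted p = 0.999). *Ereg*, epiregulin (ENSMUSG00000029377, chromosome 5, 91074622 to 91093646, plus strand), was at 2, 4, 6 and 3 in FL and at 4, 9 and 7 in WT livers. FL replicates 1, 2 and 4 were under the floor of 3 reads, so no fold is given, and the exact two-sided permutation test gave p = 0.171.

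Added up per kilobase, the 6 EGFR ligands came to 508.6, 421.3, 207.3 and 375.1 in FL livers and 532.4, 147.5 and 432.8 in WT livers. The lowest sums were those of WT replicate 2 and FL replicate 3, and the other 5 livers lay between 375.1 and 532.4 with the genotypes overlapping. *Tgfa* made up 48.3% ± 6.97 of this sum in FL and 56.2% ± 2.41 in WT livers (SD, 4 and 3 livers), *Btc* 33.7% ± 7.32 and 26.5% ± 8.95, and *Areg* 15.2% ± 4.56 and 12.3% ± 6.77. *Areg* took its largest shares, 20.7% and 20.1%, in FL replicate 3 and WT replicate 2, where its own level was lowest in its group but *Tgfa* and *Btc* were lower still relative to the other livers. *Egf* and *Ereg* each made up less than 2% in every liver.

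**Figure D2:**
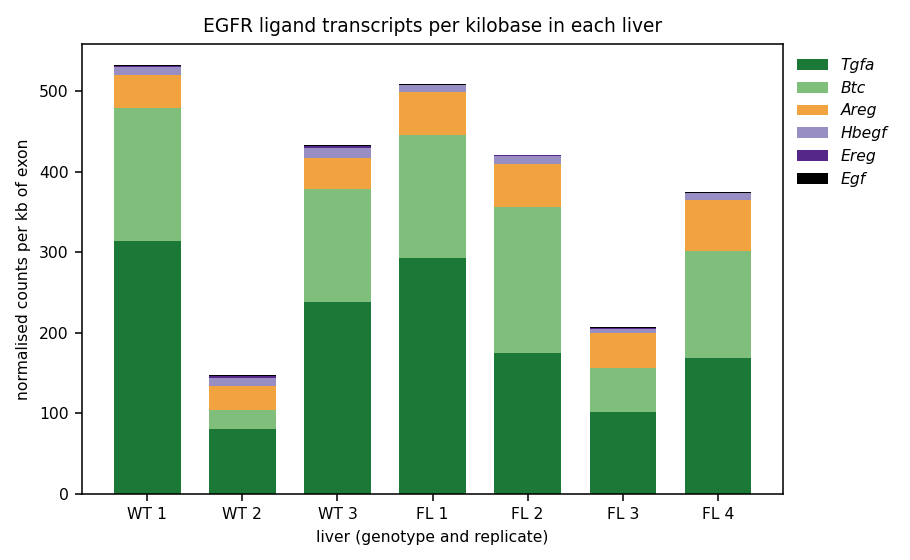
Stacked bars from 0 of the 6 EGFR ligand transcripts in each liver, in normalised counts per kilobase of annotated exon (vertical axis), for WT replicates 1 to 3 and FL replicates 1 to 4 (horizontal axis). *Tgfa* and *Btc* form most of each bar, and the bars of WT replicate 2 (147.5) and FL replicate 3 (207.3) are the shortest.

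Of the receptors, *Egfr* (ENSMUSG00000020122, chromosome 11, 16752203 to 16918158, plus strand), which binds all 6 of these ligands, was at 13803, 12518, 11263 and 11223 normalised counts in FL livers and at 14362, 4763 and 17043 in WT livers. WT replicates 1 and 3 were above every FL liver and WT replicate 2 was below every FL liver. The means were almost equal, 12202 ± 1225 (SD, n = 4) and 12056 ± 6457 (SD, n = 3), and the log2 change was 0.21 (standard error 0.40, adjusted p = 0.999; fold interval 0.608 to 2.19). Its direction turned on WT replicate 2: without that liver and FL replicate 3 the log2 change was -0.33 (interval -0.59 to -0.07, unadjusted p = 0.0196, adjusted p = 0.412).

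*Erbb3* (ENSMUSG00000018166, chromosome 10, 128567523 to 128589652, minus strand) was the receptor of the EGF family next in level. It was at 1325, 1728, 1685 and 1127 in FL livers and at 1279, 2273 and 1476 in WT livers, and WT replicate 2 was its highest liver, the reverse of *Egfr*. The log2 change was -0.17 (standard error 0.23, adjusted p = 0.999), and without FL replicate 3 and WT replicate 2 its interval ran from -0.36 to 0.36. The other EGF-family receptors were low, *Erbb2* with 30.8 ± 6.24 in FL and 46.0 ± 18.2 in WT livers and *Erbb4* with 6.75 ± 2.22 and 9.33 ± 3.06 (SD, n = 4 and n = 3).

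For the HGF route, *Met* (ENSMUSG00000009376, chromosome 6, 17463800 to 17573980, plus strand) was at 1355, 1230, 1025 and 1080 normalised counts in FL livers and at 1468, 862 and 1513 in WT livers. Like *Egfr*, it was highest in WT replicates 1 and 3 and lowest in WT replicate 2. The log2 change was -0.09 (standard error 0.21, adjusted p = 0.999), and -0.29 (interval -0.53 to -0.06, unadjusted p = 0.0203, adjusted p = 0.42) without FL replicate 3 and WT replicate 2. *Hgf* (ENSMUSG00000028864, chromosome 5, 16553495 to 16620152, plus strand) was at 86, 39, 54 and 51 in FL and at 75, 106 and 43 in WT livers. The genotypes overlapped over nearly their whole range, with a log2 change of -0.34 (standard error 0.36, adjusted p = 0.999). It was -0.03 (interval -0.81 to 0.74) without FL replicate 3 and WT replicate 2, -0.04 without WT replicate 2 alone and -0.68 without WT replicate 3. Its highest liver, WT replicate 2, was also the liver in which all 7 stellate cell markers were highest. So were all 6 proliferation genes, 6 of 7 Kupffer cell or macrophage markers and 4 of 6 endothelial markers. FL replicate 1 had more *Hgf* than FL replicate 3 (86 against 54) but a lower sum of stellate cell markers (3615 against 4135). The part of any of these cells in the *Hgf* level was not tested.

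**Figure D3:**
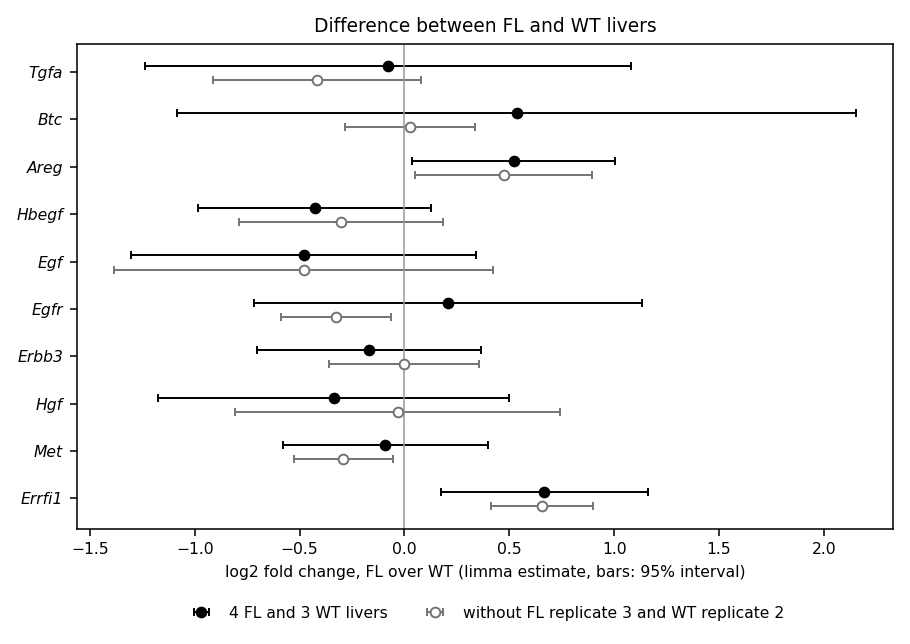
Limma log2 fold changes, FL over WT (horizontal axis), with 95% intervals for the 9 tested members and *Errfi1*; filled points use 4 FL and 3 WT livers and open points leave out FL replicate 3 and WT replicate 2. Intervals of *Areg* and *Errfi1* lie above 0 in both fits, and those of *Egfr* and *Met* shift below 0 when these livers are left out. Without these livers 1215 of the 12545 genes had an unadjusted limma p-value under 0.05, against 401 with all livers. The plotted intervals are not adjusted for the 12545 genes tested.

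By one measure of likeness, the root mean square difference between log2 values centred on each gene's mean over the 7 livers, *Egfr* was closest to *Kctd15* (0.0964), *Wfs1* (0.136) and *Sesn2* (0.142). *Kctd15* had 846, 310 and 932 normalised counts in WT replicates 1 to 3 and 701 to 811 in FL livers, the pattern of *Egfr* at a lower level. *Met* was closest to *Prep* (0.0338), *Dr1* (0.0456) and *Canx* (0.0488). *Hgf* was closest to the endothelial junction gene *Cldn5* (0.145), then *Tnfrsf11b* (0.211) and *Dab2* (0.211). These likenesses over 7 livers are descriptions, and WT replicate 2 was the lowest liver of all genes named here for *Egfr* and *Met* and the highest of those named for *Hgf*.

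The other pathway genes, 70 by list, were then examined; 67 were in the table and 65 were tested. None had an adjusted p-value under 0.05 and 1 had an unadjusted p-value under 0.05 (3.2% of all genes did), 34 had a fitted log2 fold change above 0 and 31 below 0 (51.6% of all genes were above 0), and the median was 0.01, as over all genes. FL livers lay wholly above WT livers for 3 of the 65 and wholly below for 1, against 2.77% and 1.98% of all genes. The gene with the smallest p-value was *Errfi1* (ENSMUSG00000028967, chromosome 4, 150853919 to 150868892, plus strand), which encodes MIG6, a feedback inhibitor that binds the EGFR kinase domain. It was at 23288, 24569, 16240 and 26613 normalised counts in FL livers and at 14574, 11201 and 16977 in WT livers. FL replicate 3 lay below WT replicate 3, so the groups overlapped by that liver alone. The means were 22678 ± 4505 (SD, n = 4) and 14251 ± 2902 (SD, n = 3), with a log2 change of 0.67 (standard error 0.21, unadjusted p = 0.0145, adjusted p = 0.999). Without FL replicate 3 and WT replicate 2 it was 0.66 (interval 0.41 to 0.90, unadjusted p = 0.000153, adjusted p = 0.12). At 5323 normalised counts per kilobase *Errfi1* was more abundant than any of the 10 family members. An antisense transcript that overlaps it, *1700045H11Rik*, had 5 to 15 normalised counts.

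Among the 19 inhibitors tested, 12 had a fitted log2 fold change above 0, to be read, like the counts for the other roles, against the 51.6% of all genes. After *Errfi1* the smallest p-value was that of *Dusp1*, a phosphatase of MAP kinases, with 2958 ± 578 in FL and 2152 ± 743 in WT livers (log2 fold change 0.50, adjusted p = 0.999). Of 12 genes of ligand release and activation, 4 had a fitted value above 0. *Plg*, plasminogen, whose active form can cleave matrix and growth factor precursors, was at 31261, 31854, 35673 and 35770 in FL livers and at 28235, 28155 and 28430 in WT livers, without overlap (log2 fold change 0.25, standard error 0.12, unadjusted p = 0.0758, adjusted p = 0.999). *Hgfac*, the protease that activates HGF, was at 3637, 3714, 3962 and 3669 in FL and at 3522, 2787 and 3428 in WT livers, also without overlap (log2 fold change 0.21, adjusted p = 0.999). In both cases the gap between the groups was small beside the level. *Spint1*, an inhibitor of that protease, was at 15, 22, 17 and 31 in FL and at 46, 37 and 26 in WT livers (log2 fold change -0.76, unadjusted p = 0.0504, adjusted p = 0.999). *Adam17*, which sheds most EGFR ligands, had 344 ± 45.1 and 364 ± 67.9, and the urokinase gene *Plau* 40.5 ± 23.5 and 52.0 ± 30.3. *Adam10*, another sheddase, was wholly lower in FL livers (333 to 471 against 473 to 519; log2 fold change -0.24, adjusted p = 0.999), and was chosen after its values were seen.

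Of the 20 adaptors and kinases, 13 had a fitted value above 0. *Pik3r1*, the regulatory subunit of PI3 kinase, had 900 to 1008 in FL and 800 to 882 in WT livers, without overlap (log2 fold change 0.19, adjusted p = 0.999), and *Braf* had 471 ± 43.7 and 417 ± 108. Of the early target genes, 3 of 9 tested had a fitted value above 0. *Ccnd1*, cyclin D1, was at 443, 213, 527 and 331 in FL and at 475, 2564 and 543 in WT livers, a log2 change of -1.28 (adjusted p = 0.999) with 1 WT liver far above the rest and of -0.69 (interval -1.25 to -0.13, adjusted p = 0.423) without FL replicate 3 and WT replicate 2, and *Ier3* had 99.3 ± 16.2 and 82.0 ± 3.00. The 3 other ligands tested had fitted values above 0 for 2 of them, and the 2 other receptors for 0. These ligands were led by *Mst1*, the HGF-like ligand of the receptor gene *Mst1r* (3460 ± 452 in FL and 3230 ± 487 in WT livers), while *Mst1r* itself had 11.5 ± 6.86 and 16.7 ± 13.2. *Nrg4*, a ligand of ERBB4, had 537 ± 84.4 and 486 ± 106, and *Nrg1*, a ligand of ERBB3 and ERBB4, 46.8 ± 9.54 and 86.3 ± 63.6; neither passed the test (adjusted p = 0.999 for both).

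Livers of the same genotype differed widely in these genes. In WT replicate 2, 3 of the 9 tested members (*Tgfa*, *Btc* and *Egfr*) and 12 of the 65 other pathway genes were at least 2-fold below each of the other WT livers, against 6.5% of all genes tested. A further 7 of the 65, and 0 members, were at least 2-fold above, against 9.77% of all genes. In FL replicate 3, 1 member (*Btc*) and 5 other pathway genes were at least 2-fold below each of the other FL livers, against 1.43% of all genes. These 5 were also low in WT replicate 2, as were 71.5% of all genes that were low in FL replicate 3. In the other direction, 1 pathway gene (*Plau*, 75 against 22 to 33) and 0 members were at least 2-fold above each of the other FL livers, against 2.32% of all genes. The 5 low genes were the urokinase receptor gene *Plaur*, the phosphatase genes *Dusp4* and *Dusp6*, which switch off ERK, and the ERK-responsive genes *Fosl1* and *Phlda1*, all named after their values were seen.

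*Dusp6* had 2206, 2253 and 1700 normalised counts in FL replicates 1, 2 and 4 and 521 in FL replicate 3, and 1786 and 1227 in WT replicates 1 and 3 against 539 in WT replicate 2. *Phlda1* had 5453, 3627 and 3243 against 893 in FL livers, and 3969 and 2644 against 878 in WT livers. *Dusp5* was lowest by the widest margin, with 313 in WT replicate 2 against 3712 and 3767. Of the 9 early target genes tested, 2 were at least 2-fold below each other WT liver in WT replicate 2. A further 3 were at least 2-fold above, against 6.5% and 9.77% of all genes. *Fos* had 97 there against 25 and 31, *Egr1* had 826 against 282 and 331, and *Ccnd1* was also highest there. *Dusp5*, *Fos* and *Egr1* too were named after their values were seen. Over the 19 inhibitors the median log2 difference between WT replicate 2 and its group was -0.67, and in FL replicate 3, against its own group, it was -0.44, against 0.02 and 0.01 over all genes tested. Over the 9 members these medians were -0.43 and -0.25, and over the 20 adaptors and kinases -0.48 and -0.19. The 9 early target genes had medians of 0.0009 and -0.39, and the 12 genes of ligand release and activation 0.04 and -0.13. For the 3 other ligands they were 0.36 and 0.34, and for the 2 other receptors -0.49 and 0.27. In WT replicate 2, 6 of the 19 inhibitors were at least 2-fold below each other WT liver (6.5% of all genes) and 0 at least 2-fold above (9.77%). Of the 12 genes of ligand release and activation, 2 were below and 2 above by this measure. Some inhibitors were highest of the WT livers there, *Spry1* (138 against 104 and 103) and *Spry2* (24 against 20 and 16) among them. *Spry4* (70 against 65 and 50) and the early target gene *Junb* (1307 against 768 and 837) were too, all named after their values were seen. With a single liver on 1 side of these differences no test was made, and the part of the proliferation, stellate cell and macrophage markers that were higher in the same livers was not tested.

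**Figure D4:**
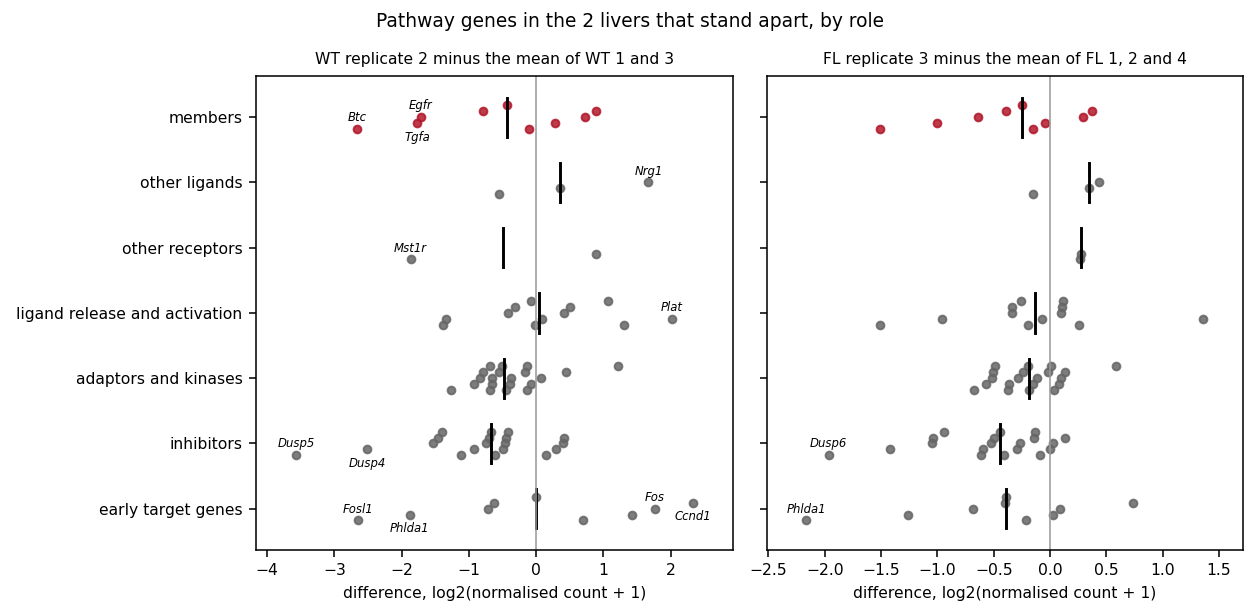
Difference in log2(normalised count + 1) of WT replicate 2 from the mean of WT replicates 1 and 3 (left) and of FL replicate 3 from the mean of FL replicates 1, 2 and 4 (right), with 1 point for each tested gene, grouped by role (vertical axis); black lines are medians and members are red. The inhibitors (medians -0.67 and -0.44) and the adaptors and kinases (-0.48 and -0.19) lie mostly below 0 on both sides. The early target genes have medians of 0.0009 and -0.39, and *Ccnd1* and *Fos* lie above 0 on the left.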

How the data were processed

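RNA of 7 mouse livers (4 FL and 3 WT, grouped and numbered by the sample labels) was measured by RNA-seq with a stranded mRNA kit. Alignment of the read pairs was by TopHat2 version 2.0.13, counting by HTSeq and normalisation by DESeq2, per the submitters' processing notes and the study's methods. The notes also name featureCounts, and the strand setting of the counting is not given in the sources used here. The notes name the build GRCh38 although all identifiers are of mouse, so symbols, exon lengths and coordinates were taken from GENCODE vM21 of GRCm38. The deposited values, a score here and not counts, are normalised read counts that the authors rounded. Repeated rows of 120 identifiers, equal in value, were merged, and 0 columns of sample values were unused.

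The genotypes were set against each other in limma (version 3.58.1, under R version 4.3.3, with lmFit and a trended eBayes) on log2(normalised count + 1) over the 12545 genes with a mean of at least 10, so fold changes of low genes are understated. Adjustment followed Benjamini and Hochberg, the threshold was 0.05, and p-values measure the spread between these mice. Positive values are higher in FL livers. The study's own test was DESeq2 on counts, which rounded values do not allow. The fit was first tested on simulated data, with a spread taken from the livers other than FL replicate 3 and WT replicate 2. That test does not show how the fit behaves with those livers included. Promoters came from RefSeq. The members, gene lists and alternatives were chosen with earlier results of these data known. Genes outside the members were named by rule, with the exceptions stated beside them: in each role the 2 with the smallest p-values, fixed partners, and the 3 nearest patterns of *Egfr*, *Met* and *Hgf*. Alternatives were pseudocounts of 0.5 and 5, no filter or a mean of 50, quantile and upper quartile scaling, an untrended or a robust eBayes, a replicate block, and leaving out livers. Python version 3.11.15 was used for tables and figures.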

Additional observations from a re-analysis of the deposited data

How the results depend on the processing

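Over the 17 alternatives, 0 to 3 members and 0 to 7 other pathway genes had an unadjusted limma p-value under 0.05. The 3 came without FL replicate 3 and WT replicate 2 together, where 1215 of 12545 genes were under 0.05. The 7 came there and without WT replicate 3, where 375 genes were. Past the adjusted threshold, the count of members and of other pathway genes was 0 in all 17. In several of these, given next, no gene at all passed, so the 0 there was fixed in advance. Across all genes the count was 2, and it was 0 with a pseudocount of 5, a minimum mean of 50, an untrended limma fit or the replicate block, 1 with quantile normalisation, 6 without FL replicate 3 and WT replicate 2 together, and 0 to 5 when 1 liver was left out. Unadjusted p-values under 0.05 numbered 110 to 1215 over these alternatives. The 5 came without WT replicate 3. *Egfr* went from 0.21 to -0.33 without FL replicate 3 and WT replicate 2 together. When 1 liver was left out, the log2 fold change ran from -0.36 to 0.56 for *Egfr*, from -0.67 to 0.32 for *Tgfa*, from -0.35 to 1.04 for *Btc*, from -0.35 to 0.051 for *Met* and from -0.34 to 0.072 for *Erbb3*. The sign turned without WT replicate 2 for *Egfr*, *Btc* and *Erbb3*, without WT replicate 1 or 3 for *Met*, and without FL replicate 3, WT replicate 1 or WT replicate 3 for *Tgfa*; the cause was not tested. *Areg* stayed between 0.38 and 0.69 and *Errfi1* between 0.50 and 0.82 in all alternatives. Same-numbered FL and WT livers are different mice, and the labels state no pairing. Correlations of their deviations were 0.438, -0.483 and -0.661. These include WT replicate 2 and FL replicate 3, whose numbers differ, so they cannot decide whether same-numbered livers were handled together. The replicate block leaves FL replicate 4 without a partner and gave the same estimates as leaving that liver out (*Areg* 0.43). It came with 0 genes, as leaving FL replicate 4 out did. *Ereg* and *Erbb4* were below the filter, and rounding and depth limit genes at such low levels, *Egf* among them.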
